A study of Mus musculus with 9 samples.

Results

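The tumor necrosis factor (TNF) superfamily was examined in mouse bone marrow-derived mast cells (BMMCs) as ligands, receptors and the adaptor proteins that the receptors recruit. Members were the protein-coding genes of the count table whose symbols begin with Tnfsf or Tnfrsf, together with Traf1 to Traf7, Cd40, Cd40lg, Cd27, Cd70, Fas, Fasl, Ltbr, Lta, Ltb, Tradd, Fadd and Tank. The rule found 51 genes among the 47643 listed. They comprised 17 ligands, 24 receptors and 10 TRAFs and adaptors. Tnf itself is not a member under this rule. No measured value entered the rule.

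The study grew mast cells from the bone marrow of C57BL/6 mice in DMEM with WEHI-3-conditioned medium, a source of interleukin-3, and fetal bovine serum for at least 4 weeks. The 9 libraries fell into 3 groups of 3. Control cells were untreated, IgE+BSA cells carried IgE against the hapten DNP and were stimulated with DNP-BSA, which crosslinks the IgE receptor, and IgE+BSA+Luteolin cells received the same stimulus and the plant flavonoid luteolin. The labels give 10 μM luteolin for 24 h. They attach this text to all 9 libraries, so it does not tell the groups apart, and the sources used here do not settle whether luteolin came before or after the stimulus in the sequenced cells or how long the stimulus lasted. No group received luteolin without the stimulus. No label ties a replicate to an animal or a culture, so the p-values measure only the spread between these libraries, which may be technical.

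Ligands of the superfamily are mostly membrane proteins that act as trimers and cluster their receptors on a neighboring cell. Receptors with a death domain can recruit Fadd or Tradd and reach caspases, whereas many of the others bind TRAF proteins directly and lead to NF-κB and MAP kinases, and decoy receptors bind ligand without signaling. Activated mast cells are known to use several of these ligands, among them the co-stimulatory ligands of T cells, to signal to other cells.

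Total counts ranged from 9515004 to 24605689 per library. A gene with 3 counts would read 0.121 to 0.291 CPM (read counts scaled to library size with TMM factors), a limit that covers counting error only. All 9 mast cell markers were above a median of 1 CPM, as were 6 of 6 neutrophil, 2 of 2 basophil and 4 of 5 macrophage markers, whereas 0 of the 17 T cell, B cell, dendritic cell and stromal markers were. Control replicate 1 stood apart from Control replicates 2 and 3. Over the members above 1 CPM its Euclidean distance in log2 CPM was 4.25 to the mean of Control replicates 2 and 3 and 2.16 to the mean of IgE+BSA+Luteolin, and of the 9 libraries it alone was closest to the mean of a different group. The summed level of the 6 neutrophil markers ranged from 5.69 to 196 CPM in Control, from 130 to 142 CPM in IgE+BSA and from 152 to 179 CPM in IgE+BSA+Luteolin. S100a9, 1 of the 6 neutrophil markers, read 105 CPM in Control replicate 1, against 0.969 and 0.907 CPM in replicates 2 and 3. The basophil and mast cell protease Mcpt8 read 432 CPM in Control replicate 1, against 21.8 and 18.7 CPM in replicates 2 and 3. In bulk RNA, fewer cells of a type and less RNA per cell cannot be told apart. The comparisons with Control are therefore also given without Control replicate 1.

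Of the 51 members, 33 had a median above 1 CPM over the 9 libraries. These were 7 of 17 ligands, 16 of 24 receptors and 10 of 10 TRAFs and adaptors. Traf4, at a median of 1.45 CPM, lay just inside the limit, and Tnfsf13b, which encodes the B cell survival factor BAFF, lay just outside it at 0.948 CPM. Counting genes above 1 CPM in at least 3 libraries instead gave 34, with Tnfsf13b added at 0.584, 1.26 and 0.948 CPM in Control replicates 1, 2 and 3, 1.45, 0.55 and 0.536 in IgE+BSA and 0.746, 1.46 and 1.5 in IgE+BSA+Luteolin.

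The 18 members below the limit held low counts. Tnfrsf17, a receptor of plasma cells, and Tnfrsf19 had 0 counts in every library. Fasl had at most 1 count, Cd70 2, Tnfrsf13c 4, Cd40 5, Tnfsf18 5, Cd40lg 6, Cd27 7, Tnfrsf25 8, Tnfsf15 9 and Tnfrsf11a 10. The remaining members below the limit were Tnfsf13 and Tnfsfm13 with at most 12 counts each, Lta with 17, Tnfsf11 with 24, Tnfrsf4 with 32 and Tnfsf13b with 36. Tnfsf12, Tnfsf13 and the read-through gene Tnfsfm13 share exons on the same strand, and the way shared reads were counted is not given in the sources used here, so the split among these 3 is uncertain. The same holds for the near-identical receptors Tnfrsf22 and Tnfrsf23.

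Per kilobase of merged exons, Tnfrsf9 was the most abundant member in every group. It encodes the co-stimulatory receptor CD137 (4-1BB). Its RNA stood at 107 ± 15.5 RPKM in Control, 126 ± 2.74 in IgE+BSA and 127 ± 7.88 in IgE+BSA+Luteolin (SD, n = 3), which was 29.8%, 24.9% and 34.0% of the RPKM summed over the 33 members. Tnfsf14, the ligand LIGHT, followed with 24.8 ± 5.12, 101 ± 5.12 and 27.7 ± 1.33 RPKM. In Control the next levels were 20.5 ± 2.79 RPKM for Tnfrsf13b, 18.9 ± 6.77 for Tnfrsf11b, 17.4 ± 1.48 for Traf7, 16.6 ± 1.55 for Tnfrsf1b and 15.4 ± 5.73 for Tnfsf8, neighbors in the order that did not differ beyond their spread. In IgE+BSA, the ligands Tnfsf9 at 34.1 ± 1.78 RPKM and Tnfsf8 at 29.8 ± 5.09 RPKM followed Tnfsf14. Of the TNF receptors themselves, Tnfrsf1b had 16.6, 18.5 and 14.5 RPKM in the 3 groups and the death domain receptor Tnfrsf1a 0.448, 1.22 and 0.796.

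Ligands and receptors that bind each other were set side by side in 19 textbook pairs, a list that is not complete. It holds no pair with Tnfsf13 or Lta, so the counts cover these 19 pairs only. Both partners were above the limit in 8 pairs, the receptor alone in 4, the ligand alone in 1 and neither in 6. The pairs with both partners were Tnfsf14 with Tnfrsf14 and with Ltbr, Ltb with Ltbr, Tnfsf9 with Tnfrsf9, Tnfsf8 with Tnfrsf8, Tnfsf10 with Tnfrsf10b and with the decoy Tnfrsf11b, and Tnfsf12 with Tnfrsf12a. Tnfsf4, the OX40 ligand, was the 1 ligand above the limit without its receptor. Receptors above the limit without their ligand were Fas, Tnfrsf18, Tnfrsf13b and Tnfrsf11b as a receptor for Tnfsf11.

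**Figure D1:**
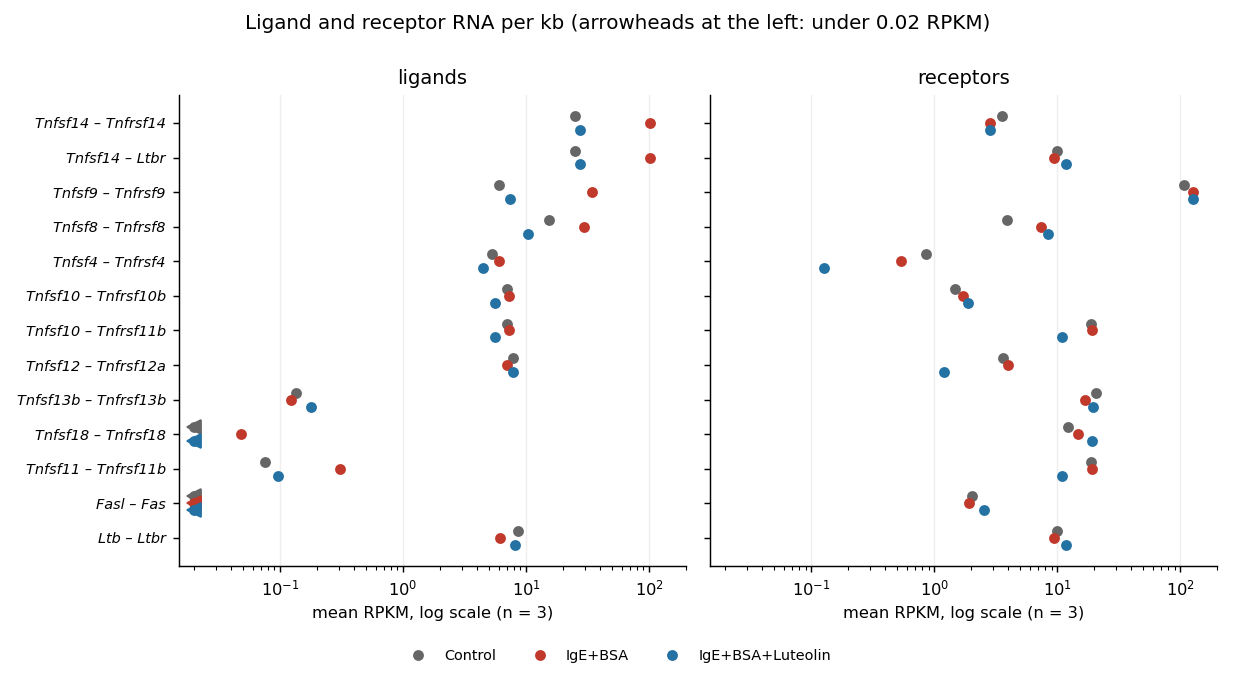
Mean RPKM (log scale, n = 3) of ligands (left) and receptors (right) in the 13 pairs with at least 1 partner above a median of 1 CPM, colored by group, with means under 0.02 RPKM drawn as arrowheads at the left edge. The ligands Tnfsf14, Tnfsf9 and Tnfsf8 move between groups over a wider range than Tnfrsf9, whose group means stay between 107 and 127 RPKM.

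The first comparison set cells given IgE and DNP-BSA against untreated cells, so it covers the IgE and the antigen together. In IgE+BSA against Control, 3 of the 33 members passed an adjusted p of 0.05 (edgeR's quasi-likelihood test, Benjamini-Hochberg over 11566 genes), all of them higher: the ligands Tnfsf14 and Tnfsf9 and the adaptor Traf1. Over all genes tested, 3.27% passed, 2.25% higher and 1.02% lower. Libraries of the 2 groups did not overlap for 9 members that were higher and 2 that were lower in IgE+BSA, against 16.6% and 12.1% of all genes. The median log2 fold change was 0.13 over the 33 members and 0.02 over all genes.

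Tnfsf14 (ENSMUSG00000005824, GRCm38 chromosome 17, 57189492 to 57194177, minus strand) encodes a ligand of Tnfrsf14 and Ltbr. Its level was 56.6, 41.9 and 39 CPM in Control replicates 1, 2 and 3, 196, 178 and 185 CPM in the IgE+BSA libraries and 52.2, 52.9 and 48.3 CPM in the IgE+BSA+Luteolin libraries. All IgE+BSA libraries lay above all others, and those with luteolin lay below Control replicate 1 and above Control replicates 2 and 3. Tnfsf14 was 4.05-fold higher in IgE+BSA than in Control (log2 fold change 2.02, SE 0.17, adjusted p = 0.00128 by edgeR's quasi-likelihood test, n = 3) and 2.16 higher on the log2 scale without Control replicate 1.

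Tnfsf9 (ENSMUSG00000035678, chromosome 17, 57105325 to 57107757, plus strand) encodes the ligand of Tnfrsf9. It read 11.3, 5.91 and 6.06 CPM in Control, 41.4, 45.7 and 44.9 in IgE+BSA and 9.46, 9.96 and 9.14 in IgE+BSA+Luteolin, in order of replicate. Control replicate 1 held the highest Control value, and the lowest IgE+BSA value was still well above it. The change was 2.49 on the log2 scale (SE 0.27, adjusted p = 0.00419 by edgeR's quasi-likelihood test, n = 3), and 2.82 without Control replicate 1. The long noncoding RNA gene Gm11110 shares 192 exon bases with Tnfsf9 on the opposite strand and ranged from 1.51 to 4.29 CPM over all 9 libraries.

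Traf1 (ENSMUSG00000026875, chromosome 2, 34941750 to 34961772, minus strand), an adaptor that pairs with Traf2 at several of these receptors, read 25.5, 31.4 and 29.3 CPM in Control, 50.5, 41.6 and 50.7 in IgE+BSA and 19, 16.1 and 20.1 in IgE+BSA+Luteolin. The 3 groups did not overlap. The difference between IgE+BSA and Control was 0.73 on the log2 scale (SE 0.13, adjusted p = 0.0341 by edgeR's quasi-likelihood test, n = 3). It was not past the threshold when any library other than Control replicate 1 was left out (adjusted p 0.0862 to 0.206). Its size in those fits was 0.68 to 0.81. Nor did it pass with the replicate block (0.73, adjusted p = 0.127 by the same edgeR test), with library size alone as the scaling (0.55, 0.0847) or with upper-quartile factors (0.62, 0.0608).

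Tnfsf8 (ENSMUSG00000028362, chromosome 4, 63831308 to 63861347, minus strand), the CD30 ligand, read 33.7, 74.3 and 67.9 CPM in Control, 117, 92.4 and 131 in IgE+BSA and 42, 35.1 and 40.6 in IgE+BSA+Luteolin. The IgE+BSA libraries lay above every other library. Against the wide Control spread its log2 fold change of 0.96 (SE 0.28) had an adjusted p of 0.124 in edgeR's quasi-likelihood test, n = 3. With all Control libraries it was called higher by DESeq2 (adjusted p = 0.032), by edgeR without a filter on low counts (0.0064) and in the edgeR fit of all 9 libraries (0.0455). Without Control replicate 1 the change was 0.63 with an adjusted p of 0.000556 in edgeR. Traf6 (ENSMUSG00000027164, chromosome 2, 101678429 to 101701669, plus strand), the E3 ligase that also serves Toll-like and interleukin-1 receptors, read 14.9, 30.5 and 28.9 CPM in Control, 34.8, 32 and 34.7 in IgE+BSA and 12, 14.5 and 17.3 in IgE+BSA+Luteolin. Control replicate 1 lay among the luteolin libraries for this gene and Control replicates 2 and 3 near IgE+BSA.

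**Figure D2:**
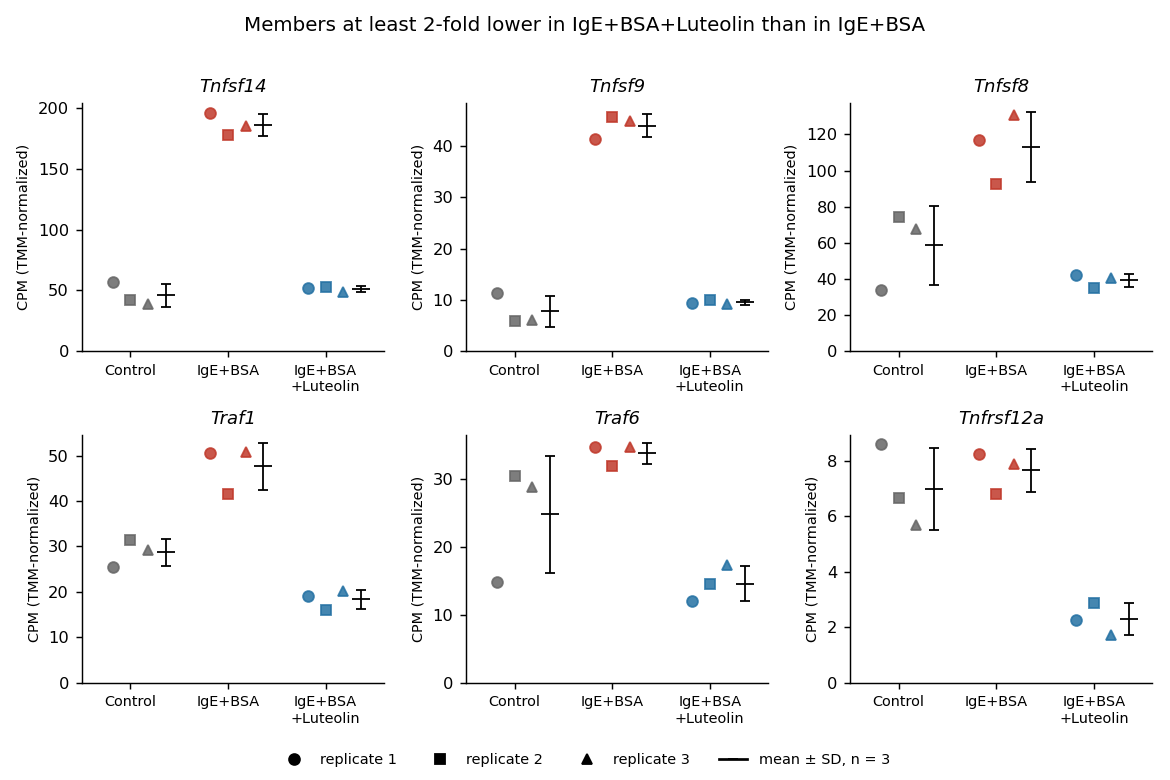
TMM-normalized CPM (vertical axes from 0) in each library of the 6 members that were at least 2-fold lower in IgE+BSA+Luteolin than in IgE+BSA, with symbols for the replicate and black bars for the mean ± SD (n = 3). Tnfsf14 sits at 178 to 196 CPM in IgE+BSA and at 39 to 56.6 CPM in the other libraries, whereas Tnfrsf12a sits at 5.69 to 8.61 CPM in Control and IgE+BSA and at 1.74 to 2.87 CPM with luteolin.

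The second comparison asked which members differed with luteolin in stimulated cells. Here 18 of the 33 members passed the threshold, 13 lower and 5 higher in IgE+BSA+Luteolin than in IgE+BSA, where 39.9% of all genes did, 21.8% lower and 18.1% higher. Libraries did not overlap for 14 members that were lower and 6 that were higher, against 26.2% and 24.1% of all genes. At least 2-fold lower were 6 members, Tnfsf9, Tnfsf14, Tnfrsf12a, Tnfsf8, Traf1 and Traf6, and 0 were at least 2-fold higher. Over all genes tested 5.16% were at least 2-fold lower and 0.38% at least 2-fold higher at that threshold. By role, 5 of 7 ligands were lower and 1 was higher, 2 of 8 TRAF-binding receptors were lower and 3 higher, 1 of 4 decoy and other receptors was lower, and 5 of 10 TRAFs and adaptors were lower and 1 higher, whereas 0 of 4 death domain receptors passed. The libraries of IgE+BSA are shared with the first comparison, so the changes in the 2 comparisons are not independent. Traf1, Traf3, Traf5 and Traf6 are among the genes that the study itself displayed from these libraries, so their direction here is not independent evidence.

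Among the ligands, Tnfsf9 fell by 2.20 on the log2 scale (SE 0.09, adjusted p = 3.05e-12 by edgeR's quasi-likelihood test, n = 3). Tnfsf14 fell by 1.86 (SE 0.06, adjusted p = 2.57e-13 by the same edgeR test) and Tnfsf8 by 1.53 (SE 0.10, adjusted p = 2.85e-09). All of these had every luteolin library below every IgE+BSA library. Tnfsf4, the OX40 ligand, read 6.96, 12 and 10.1 CPM in Control, 10.8, 9.75 and 12.5 in IgE+BSA and 8.76, 8.86 and 6.91 in IgE+BSA+Luteolin and fell by 0.43. Tnfsf10, the death ligand TRAIL, read 25.8, 44.2 and 40.3, 37.4, 33.4 and 45.1 and 30.1, 28.1 and 30.5 CPM in the same order and fell by 0.38. The 1 ligand that rose was Ltb, the membrane-bound subunit of lymphotoxin, by 0.40 (adjusted p = 0.0461 by edgeR's quasi-likelihood test), from 10.5, 10.4 and 7.07 to 12.5, 13.3 and 11 CPM, with 12.1, 12.8 and 14.1 CPM in Control. Tnfsf12, the ligand TWEAK of Tnfrsf12a, did not pass the threshold (log2 fold change 0.15, SE 0.13), at 12.1, 10.7 and 13.1 CPM in Control, 10.2, 11.9 and 10 in IgE+BSA and 13.7, 11.1 and 10.8 in IgE+BSA+Luteolin.

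Among the 8 TRAF-binding receptors tested, Tnfrsf12a (ENSMUSG00000023905, chromosome 17, 23675445 to 23677468, minus strand), the TWEAK receptor Fn14, changed most. It read 8.61, 6.68 and 5.69 CPM in Control, 8.27, 6.8 and 7.9 in IgE+BSA and 2.28, 2.87 and 1.74 in IgE+BSA+Luteolin. Control and IgE+BSA overlapped, and every luteolin library lay below both. It fell by 1.72 on the log2 scale (SE 0.21, adjusted p = 6.38e-06 by edgeR's quasi-likelihood test, n = 3). Tnfrsf1b, the TNF receptor of mostly immune cells, fell by 0.35, from 69, 67.9 and 75 to 53.5, 53.9 and 58.2 CPM, with 70.3, 60.3 and 59.8 CPM in Control. The receptors that rose were Tnfrsf18 (GITR) by 0.39, from 23, 22.7 and 21.3 to 29.6, 29.8 and 28.1 CPM, Ltbr, the lymphotoxin β receptor, by 0.33, from 22.5, 20.6 and 23.5 to 27.7, 29.3 and 26.4 CPM, and Tnfrsf13b, the BAFF and APRIL receptor TACI, by 0.21, from 50, 47.6 and 45.3 to 52.9, 54.4 and 57.4 CPM. In Control, Ltbr read 30.6, 20 and 19 CPM and Tnfrsf13b 48.9, 62.4 and 62.8 CPM. The antisense gene Gm16008 covers 27.2% of the exon bases of Tnfrsf18 and ranged from 0.445 to 1.65 CPM.

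Tnfrsf9, the most abundant receptor, read 339, 277 and 258 CPM in Control, 343, 349 and 334 in IgE+BSA and 363, 355 and 322 in IgE+BSA+Luteolin. With luteolin it differed by 0.02 on the log2 scale (95% interval -0.10 to 0.14), while its ligand Tnfsf9 differed by -2.20 (95% interval -2.39 to -2.01). The intervals of receptor and ligand thus lay apart in this comparison. Tnfrsf14 differed by 0.01 (95% interval -0.41 to 0.43) at 4.29, 3.9 and 4.05 and 4.01, 3.72 and 4.59 CPM, and Tnfrsf8, the CD30 receptor, by 0.21 (95% interval -0.02 to 0.43) at 24.5, 24.8 and 26.6 and 24.1, 29.3 and 33.9 CPM.

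The decoy receptor Tnfrsf11b, osteoprotegerin, which is secreted and binds Tnfsf11 and Tnfsf10, fell by 0.79 (SE 0.08, adjusted p = 3.58e-07 by edgeR's quasi-likelihood test, n = 3), from 54.3, 53 and 54.2 to 29.6, 34 and 29.6 CPM. The other members of that group did not pass the threshold. Tnfrsf26 read 20.3, 20 and 19.2 CPM in Control, 24.5, 23.7 and 23.6 in IgE+BSA and 24.2, 21.4 and 22.6 in IgE+BSA+Luteolin. Tnfrsf23 read 7.98, 4.36 and 5.85, 6.96, 7.05 and 8.88 and 8.16, 7.29 and 7.64 CPM in that order, and Tnfrsf22 read 2.53, 2.62 and 2.02, 2.8, 1.75 and 2.24 and 1.54, 1.3 and 1.55 CPM. Tnfrsf22 lay lower in every luteolin library than in any other, with a log2 fold change of -0.64 against IgE+BSA (SE 0.30, adjusted p = 0.0961 in edgeR's quasi-likelihood test).

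Of the 4 death domain receptors tested, 0 passed the threshold with luteolin in edgeR's quasi-likelihood test and 0 did in limma or DESeq2, while 2 had an unadjusted p under 0.05 in edgeR, where 49.1% of all genes did. With another scaling in edgeR 1 of the 4 passed, Fas, whose values follow. Fas, the receptor of Fasl, read 5.5, 3.39 and 3.75 CPM in Control, 4.25, 3.85 and 3.66 in IgE+BSA and 4.66, 5.83 and 5.22 in IgE+BSA+Luteolin. Its luteolin libraries all lay above those of IgE+BSA, by 0.42 on the log2 scale (adjusted p = 0.0853 by edgeR's quasi-likelihood test). Fas was called higher with library size alone as the scaling (0.53, adjusted p = 0.0276 by the same edgeR test) and with upper-quartile factors (0.50, adjusted p = 0.0406). Tnfrsf1a, the TNF receptor with a death domain, read 1.99, 0.581 and 0.907, 3.62, 3.5 and 2.39 and 2.1, 2.59 and 1.5 CPM in the 3 groups, and Tnfrsf10b, the TRAIL receptor, 8.86, 7.94 and 7.46, 8.27, 10.4 and 9.27 and 11.5, 10.7 and 8.51 CPM. Neither moved between IgE+BSA and IgE+BSA+Luteolin beyond the threshold. Tnfrsf21 (DR6), the most abundant of them, read 66.4, 51 and 58.5 CPM in Control, 75.5, 80.8 and 69.2 in IgE+BSA and 70.5, 76.3 and 73.5 in IgE+BSA+Luteolin.

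Among the TRAFs, Traf1 fell by 1.37 on the log2 scale (SE 0.10, adjusted p = 8.9e-09 by edgeR's quasi-likelihood test, n = 3) and Traf6 by 1.21 (SE 0.11, adjusted p = 1.86e-07). Traf3, an adaptor known to restrain non-canonical NF-κB, read 31.3, 41.1 and 39.2 CPM in Control, 49.1, 48.4 and 52.8 in IgE+BSA and 31.2, 29.5 and 39.5 in IgE+BSA+Luteolin and fell by 0.59 with luteolin. Traf5, a relative of Traf3, fell by 0.41, from 10.5, 9.9 and 10.8 to 7.69, 8.3 and 7.44 CPM, with 10.2, 9.59 and 9.97 in Control. Traf2, which recruits the cIAP ligases, fell by 0.26, from 46.4, 44.7 and 46.5 to 41.1, 38 and 35.3 CPM, with 58.7, 49.9 and 48.7 in Control. These smaller changes still left every luteolin library below every IgE+BSA library. Tradd, the adaptor of Tnfrsf1a, rose by 0.38, from 13.8, 16.7 and 16.4 to 19, 21.7 and 20.2 CPM, with 23.7, 15.3 and 16.5 in Control.

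The other adaptors did not pass the threshold with luteolin. Traf7 read 94.7, 100 and 112 CPM in Control, 104, 100 and 104 in IgE+BSA and 98.1, 94.2 and 101 in IgE+BSA+Luteolin. Tank, a partner of the kinase TBK1, read 23.2, 44 and 38.5, 33.7, 29.6 and 34.9 and 33.7, 30.5 and 34.5 CPM in the same order. Fadd read 17.4, 11.2 and 12.4, 11.8, 16.2 and 10.2 and 15.5, 13.9 and 13.3 CPM, and Traf4 1.41, 1.55 and 2.39, 1.31, 1.45 and 1.51 and 0.839, 1.54 and 1.02 CPM.

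**Figure D3:**
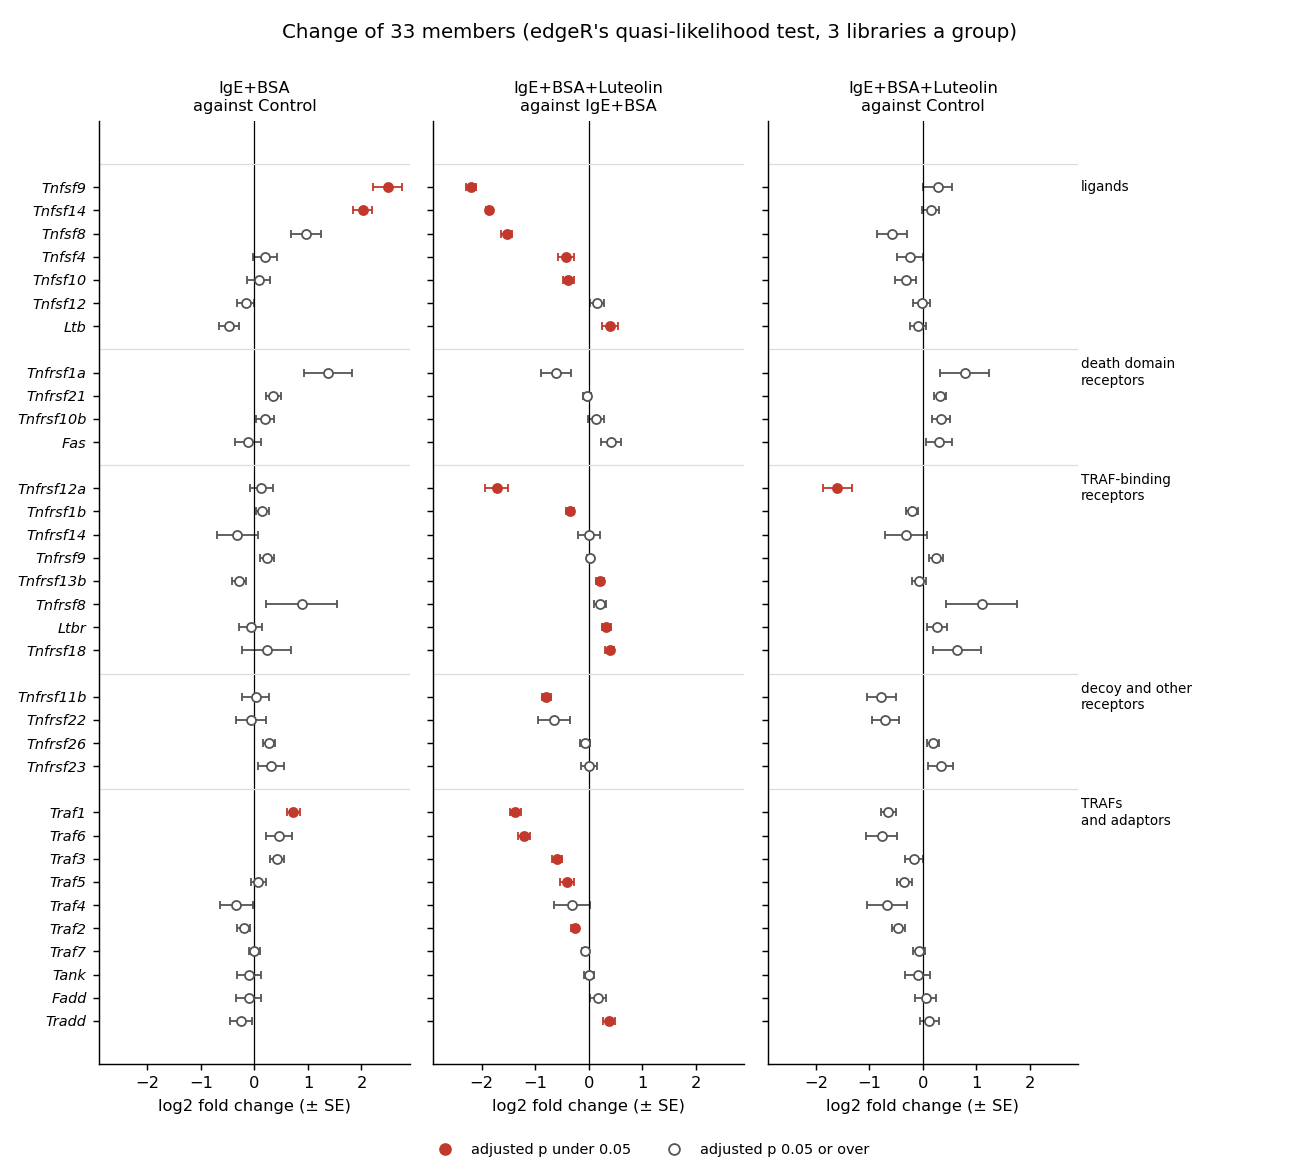
Log2 fold change ± SE of the 33 members in the 3 comparisons (3 libraries a group), grouped by role and ordered by the middle comparison, with filled red points for an adjusted p under 0.05 in edgeR's quasi-likelihood test. The middle panel has 18 filled points, 13 of them left of 0, and the outer panels have 3 and 1.

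Several calls rested on which libraries entered the fit. In a fit of all 9 libraries, where Control shared the estimate of spread, 8 members and 9.39% of genes were called. The 8 members were the 6 at least 2-fold lower, Tnfrsf1b and Traf3. Ltb, Ltbr, Tnfrsf11b, Tnfrsf13b, Tnfrsf18, Tnfsf10, Tnfsf4, Tradd, Traf2 and Traf5 were not called there. The log2 fold changes of these uncalled members ran from -0.79 for Tnfrsf11b to 0.40 for Ltb in both fits. Leaving out 1 library called 14 to 19 members, where 28.0% to 43.9% of all genes were called. Ltb lost its call without IgE+BSA replicate 1 (log2 fold change 0.49) or 3 (0.24) and without IgE+BSA+Luteolin replicate 1 (0.38) or 2 (0.33). Tnfsf4 lost its call without IgE+BSA replicate 1 (-0.44) or 3 (-0.33) or luteolin replicate 3 (-0.32). Traf5 lost it without IgE+BSA replicate 1 (-0.40) or 3 (-0.38) or luteolin replicate 1 (-0.40). Tnfrsf13b lost it without IgE+BSA replicate 3 (0.17) or luteolin replicate 2 (0.21) or 3 (0.17), and Tradd without IgE+BSA replicate 1 (0.29) or luteolin replicate 2 (0.32). Scaling by library size alone ended the calls of Tnfsf4 (adjusted p = 0.0846 by edgeR's quasi-likelihood test), Traf2 (0.0985) and Traf5 (0.0678) and added Fas, Tnfrsf8 and Tnfrsf9 as higher. Upper-quartile factors ended those of Tnfsf4 (0.059) and Traf2 (0.0521) and added Fas and Tnfrsf8. The summed CPM of the 9 mast cell markers was 51600 to 57200 in IgE+BSA and 61100 to 70700 in IgE+BSA+Luteolin, and that of the neutrophil markers 130 to 142 and 152 to 179. The mast cell sum follows its most abundant genes: 4 of the 9 markers lay higher in every luteolin library (Cpa3, Tpsb2, Fcer1a and Ms4a2), 4 lay lower (Kit, Tpsab1, Hdc and Mitf) and Gata2 overlapped. Of the 6 neutrophil markers 3 lay higher and 3 overlapped. The sum of the 2 basophil markers was 805 to 888 CPM in IgE+BSA and 909 to 1020 CPM in IgE+BSA+Luteolin, with Prss34 higher and Mcpt8 overlapping. The macrophage sums overlapped, with 1 of 5 markers lower (Cd163) and 4 overlapping. The part of these shifts in the members' changes was not tested.

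Tnfrsf4, the OX40 receptor of Tnfsf4, was below the limit for testing and is named because of its values. It read 1.56, 0.969 and 0.989 CPM in Control, 0.633, 0.35 and 1.22 in IgE+BSA and 0.186, 0.0405 and 0.29 in IgE+BSA+Luteolin, which was 66, 46 and 11 counts summed over the 3 libraries of each group. Every luteolin library lay below every other. In the fit without a filter on low counts it was lower with luteolin than in IgE+BSA by -2.07 on the log2 scale (adjusted p = 0.0213 by edgeR's quasi-likelihood test).

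The third comparison asked how stimulated cells with luteolin stood against untreated cells. In IgE+BSA+Luteolin against Control 1 of the 33 members passed, Tnfrsf12a, which fell by 1.60 on the log2 scale (SE 0.27, adjusted p = 0.0299 by edgeR's quasi-likelihood test, n = 3), where 3.03% of all genes passed, 2.75% lower and 0.285% higher. It fell by 1.41 without Control replicate 1 (adjusted p = 0.000181), and leaving out any other library ended the call, at an adjusted p of 0.0814 to 0.178. Libraries did not overlap for 2 members that were higher and 6 that were lower, against 13.6% and 14.9% of all genes. Tnfsf14 differed from Control by 0.15 (95% interval -0.21 to 0.52), Tnfsf9 by 0.28 (-0.34 to 0.91), Tnfsf8 by -0.58 (-1.24 to 0.08), Traf1 by -0.65 (-0.98 to -0.31, adjusted p = 0.0631 by edgeR's quasi-likelihood test) and Traf6 by -0.77 (-1.43 to -0.10). These intervals do not show that the groups were alike. Without Control replicate 1, Tnfsf8 (-0.86, adjusted p = 5.3e-07 by edgeR's quasi-likelihood test), Traf1 (-0.73, 3.28e-05) and Traf6 (-1.03, 3.93e-06) were lower than Control, and Tnfsf14 (0.34, 0.00308) and Tnfsf9 (0.66, 0.00251) were higher. Traf1 and Traf2 were also called lower by DESeq2 (adjusted p = 0.00219 and 0.0151) and in the edgeR fit of all 9 libraries (0.0165 and 0.0231). Both other comparisons share libraries with this one.

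Control libraries spread more widely than the others over the members. The highest Control value was a median of 1.55 times the lowest, against 1.15 in IgE+BSA and 1.16 in IgE+BSA+Luteolin, and Control had the widest spread of the 3 groups for 22 of 33 members. For 25 of 33 members Control replicate 1 was nearer to the luteolin mean than to Control replicates 2 and 3. It was at least 2-fold away from the geometric mean of those replicates for 6 members. Tnfrsf8 was 6.08 times higher in Control replicate 1, at 30.2, 4.36 and 5.65 CPM in replicates 1, 2 and 3. Tnfrsf18 was 3.16 times higher at 33.6, 7.65 and 14.8 CPM, and Tnfrsf1a 2.74 times higher. Against these, Tnfrsf14 was at 2.34, 6.49 and 6.59 CPM, Tnfrsf11b at 31.2, 64.7 and 63.8 CPM and Tnfsf8 at 33.7, 74.3 and 67.9 CPM, lower in replicate 1. For all 6, Control replicates 2 and 3 were the nearest pair.

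**Figure D4:**
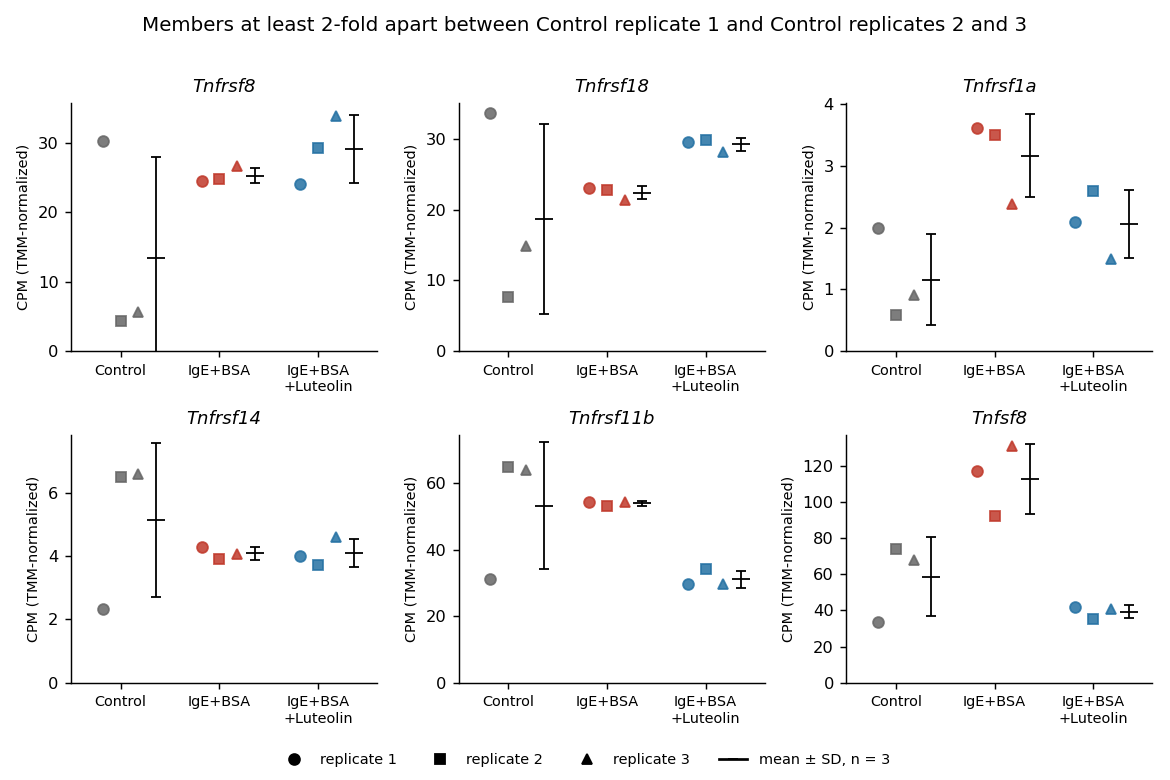
TMM-normalized CPM (vertical axes from 0) in each library of the 6 members with Control replicate 1 at least 2-fold away from Control replicates 2 and 3, with black bars for the mean ± SD (n = 3; the Control bar of Tnfrsf8 is cut at 0). Tnfrsf8 stands at 30.2 CPM in Control replicate 1, at 4.36 and 5.65 CPM in the other Control libraries and at 24.1 to 33.9 CPM in the remaining libraries.

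Without Control replicate 1, edgeR's quasi-likelihood test called 15 members in IgE+BSA against Control, 10 higher and 5 lower, where 45.1% of all genes were called. The higher members were Tnfsf14, Tnfsf9, Tnfsf8, Traf1, Traf3, Tnfrsf8, Tnfrsf1a, Tnfrsf18, Tnfrsf21 and Tnfrsf9, with log2 fold changes from 0.28 for Traf3 to 2.82 for Tnfsf9. The largest among the receptors were 2.24 for Tnfrsf8 and 1.95 for Tnfrsf1a. The lower members were Tnfrsf14 at -0.73, Ltb at -0.59, Tnfrsf13b at -0.44, Tank at -0.37 and Tnfrsf11b at -0.30. In IgE+BSA+Luteolin against Control the same omission called 23 members, 11 higher and 12 lower, where 60.0% of genes were called. Tnfrsf8 was higher by 2.48 and Tnfrsf18 by 1.28, and Tnfrsf11b was lower at -1.05. The neutrophil markers and Mcpt8 are lower in Control replicates 2 and 3 than in the other 7 libraries, as Tnfrsf8 is, and their part in these calls was not tested.

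Other genes of the pathway were counted from fixed lists, 50 of whose 52 genes were tested. In IgE+BSA against Control, where 2.25% of all genes were higher and 1.02% lower, 4 were higher and 0 lower: Tnf at 759 ± 45.3 against 14.8 ± 6.06 CPM (SD, n = 3), Tnfaip3, the ubiquitin-editing inhibitor A20, at 598 ± 22.8 against 185 ± 9.84, the NF-κB subunit Rel at 314 ± 53.1 against 103 ± 27.7, and the NF-κB inhibitor Nfkbia at 188 ± 12.8 against 97.3 ± 4.48. Without Control replicate 1 these 4 were higher by 6.04, 1.62, 1.35 and 0.88 on the log2 scale, and 9 of the 50 were higher and 13 lower, where 45.1% of all genes were called. With luteolin 21 of the 50 were lower and 6 higher than in IgE+BSA, where 21.8% of all genes were lower and 18.1% higher. The NF-κB list had 7 of 8 lower, led by Nfkbia with a log2 fold change of -3.48, Rel with -2.41 and Nfkb1 with -0.68. The list of kinases and their adaptor subunits had 4 of 12 lower and 0 higher. These were the kinases Map3k14 (NIK) with -0.51 and Map3k5 (ASK1) with -0.24 and the adaptors Azi2 with -0.31 and Tab2 with -0.23. The death and survival complex had 4 of 9 lower and 1 higher, with Cflar (c-FLIP) at -0.76, Birc3 (cIAP2) at -0.60 and Bid at 0.39. Ubiquitin editing had 2 lower and 2 higher of 9, with Tnfaip3 at -0.37, Rnf31 at -0.34 and Tnip1 at 0.27. TRAF interactors had 2 lower and 1 higher of 7, with Tax1bp1 at -0.81, Traf3ip3 at 0.31 and Trafd1 at -0.22. A list of superfamily ligands and receptors with other symbols, which also held the sheddase Adam17, had 2 of 5 tested genes lower and 2 higher. Tnf stood at -4.18, Eda2r at -1.05, Relt at 0.30 and Adam17 at 0.26. Against Control, IgE+BSA+Luteolin had Tnf at 1.49 and Tnfaip3 at 1.32, both higher, and Nfkbia at -2.53, lower. The other 47 genes tested did not pass in that comparison, in which 0.285% of all genes were higher and 2.75% lower. Without Control replicate 1 Tnf stood at 1.90, Tnfaip3 at 1.30 and Nfkbia at -2.56, and 5 of the 50 were higher and 21 lower, where 60.0% of all genes were called.

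Promoter sequence was read for the members that moved most. RefSeq windows (GRCm38.p6) were found for 40 of the 51 members and for 5 of the 6 at least 2-fold lower with luteolin, Tnfsf9 being the other. Of these 5, Tnfsf14 and Traf1 are shown, since their windows of 250 bases before the start do not enter the annotated gene and hold a match to a motif of a factor downstream of the IgE receptor. The Tnfsf14 window is chr17:57194182-57194431 and the Traf1 window is chr2:34961773-34962022, both read on the minus strand from 5′ to 3′. Capitals mark TGANTCA (AP-1) and TGGAAA (the NFAT core) on either strand.
Tnfsf14: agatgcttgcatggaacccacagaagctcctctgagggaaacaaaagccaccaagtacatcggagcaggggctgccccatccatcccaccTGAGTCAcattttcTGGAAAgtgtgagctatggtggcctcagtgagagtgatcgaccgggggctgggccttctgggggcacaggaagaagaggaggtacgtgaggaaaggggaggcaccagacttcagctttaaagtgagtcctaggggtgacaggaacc
Traf1: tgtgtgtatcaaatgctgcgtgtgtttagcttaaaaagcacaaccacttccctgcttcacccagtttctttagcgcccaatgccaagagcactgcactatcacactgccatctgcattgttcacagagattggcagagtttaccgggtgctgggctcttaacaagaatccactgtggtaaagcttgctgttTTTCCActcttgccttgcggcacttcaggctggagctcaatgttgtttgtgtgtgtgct
In Tnfsf14 the AP-1 letters lie 160 to 154 bases and the TGGAAA letters 146 to 141 bases before the start. In Traf1 the TGGAAA letters are on the opposite strand, 59 to 54 bases before the start. The 3 motifs searched did not overlap in these windows. Over all 32851 promoter windows of the same length, 6.75% held TGANTCA, 18.6% held TGGAAA and 3.90% held the NF-κB consensus. Among the 5 windows of the members at least 2-fold lower, 1 held TGANTCA, 2 held TGGAAA and 0 held the NF-κB consensus, which was present in 6 of 29 windows of members above the limit, namely those of Ltb, Tnfrsf8, Tnfrsf9 and Traf3 and both of Tank. The motifs were chosen after the values had been seen, and a match describes letters only.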

How the data were processed

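From stranded mRNA libraries, the authors cleaned reads with HTStream, mapped them by STAR 2.7.0f (mm10, per the labels) and deposited raw counts per Ensembl gene with no normalization. The annotation, strand setting and treatment of reads with several matches are not given in the sources used here. Symbols, exon lengths and coordinates came from GENCODE M21 (GRCm38). Of 47643 identifiers, 47224 matched, and 24256 genes had 0 counts in every library. Replicates differed beyond sampling noise (lowest chi-square per degree of freedom 3.82).

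The main test was the two-sided quasi-likelihood test of edgeR 4.0.16 (R 4.3.3) with TMM factors, fitted for each comparison on its own 6 libraries over genes with a median above 1 CPM. Benjamini-Hochberg adjustment covered all 11566 genes. RPKM is TMM-scaled CPM per kilobase. Alternatives were DESeq2 1.42.0, limma 3.58.1, other scalings and filters, all 9 libraries, the replicate block and each library left out. Every member above 1 CPM in at least 3 libraries has its values by library, and those at least 2-fold changed and called have full statistics. Members, lists and comparisons were chosen with earlier results of these data known.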

Additional observations from a re-analysis of the deposited data

How the results depend on the processing

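Tnfsf14 and Tnfsf9 in IgE+BSA against Control, and the 6 members at least 2-fold lower with luteolin than in IgE+BSA, kept their direction and passed the threshold under every alternative run. Over the 33 members above the limit and those tested without a filter, the 45 alternative fits ended 43 calls and added 50, of which 34 came without Control replicate 1. The 38 member changes followed one by one were those with an unadjusted p under 0.05 in the main edgeR test, and 0 reversed. That choice makes a reversal unlikely. Changes outside it could reverse: Tnfrsf11b in IgE+BSA against Control went from 0.02 on the log2 scale to -0.30 without Control replicate 1. For IgE+BSA against Control the genes called were 1222 by DESeq2, 604 without a filter on low counts, 1104 with all 9 libraries and 144 with the replicate block, and 90 to 5211 with 1 library left out, while members called with 1 left out were 2 to 15. For IgE+BSA+Luteolin against IgE+BSA all 9 libraries gave 1086 genes and 8 members, and leaving 1 out gave 3233 to 5079 genes and 14 to 19 members. Library size alone as the scaling gave 3857 genes higher and 1757 lower (18 members, 8 higher and 10 lower, with 3 calls ended and 3 added, median log2 fold change of all genes 0.13), and upper-quartile factors 3267 higher and 2009 lower (7 and 11 members, with 2 calls ended and 2 added, median 0.09), against 2097 and 2517 in TMM. For IgE+BSA+Luteolin against Control the genes and members called were 1377 and 3 by DESeq2, 793 and 2 without a filter, 1250 and 3 with all 9 libraries, 211 genes with the replicate block, and 2 to 6939 genes and 0 to 23 members with 1 left out. The cause was not tested, beyond fewer libraries or more genes in a fit. Without a filter 49 members were tested.

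No label says whether replicate numbers pair the libraries, and the correlations were mixed. Deviations of same-numbered libraries correlated at -0.053, -0.317 and 0.294 in IgE+BSA against Control, at -0.016, 0.211 and 0.330 in IgE+BSA+Luteolin against IgE+BSA, and at 0.213, -0.157 and 0.377 in IgE+BSA+Luteolin against Control. Between libraries with different numbers the correlations were -0.314 to 0.346, -0.321 to 0.177 and -0.36 to 0.255 in the same order. Whether the numbers mark pairs is therefore not settled. In the second comparison the block called 5579 genes, against 4614 without it, and 18 members, as without it. In the first it ended the call of Traf1 (adjusted p = 0.127 by edgeR's quasi-likelihood test), leaving 2 members.

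Each group held only 3 libraries, which limits the precision of every comparison. A 0 count allows up to 0.121 to 0.291 CPM, so low members cannot be called absent.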
